A study of Sus scrofa with 16 samples.

Results

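Among 27370 transcripts measured in the sow ovary, 169 (0.617%) were listed at 0 in all 8 libraries of the luteal phase while having a value above 0 in at least 5 of the 8 libraries of the follicular phase. The mirror set, listed at 0 in all 8 follicular libraries and above 0 in at least 5 luteal ones, held 11 transcripts (0.0402%), so the follicular set was 15.4 times as large. A single member, ENSSSCT00000007316, was seen in every follicular ovary. The other 168 were low and patchy, and the values of the whole set rested on 2136 estimated fragments. Because the rule itself uses the contrast between the phases, that contrast is described here and not tested.

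The values came from ovaries of Canadian Large White sows, with 1 RNA library per sow. The study chose sows without kinship. The 4 groups of 4 sows were LH (luteal phase, day 14 of the estrous cycle, high fecundity), LL (luteal phase, day 14, low fecundity), FH (follicular phase, day 20, high fecundity) and FL (follicular phase, day 20, low fecundity), with day 1 as the first day of estrus. The study assigned fecundity from the number of piglets a sow had born, and its label is a record of litters, not a genotype that was tested here. The expression level was FPKM, the fragments of a transcript scaled by its length and by all fragments of the library.

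In the luteal phase the ovary is dominated by corpora lutea, the glands that form from ovulated follicles and secrete progesterone. After the corpora lutea regress, a cohort of antral follicles grows under gonadotropins, their granulosa and theca cells make estradiol, and the animal returns to estrus. Day 14 and day 20 therefore sample tissue of different composition. In such bulk samples, fewer cells of a type and less RNA per cell cannot be told apart.

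The depth limits what a 0 can say. The FPKM values of each library lay on steps, from which the number of fragments on the transcripts of the table was estimated at 177000 to 298000 (median 201000) in luteal and 166000 to 305000 (median 220000) in follicular libraries, a difference that an exact two-sided permutation test did not separate (p = 0.361, adjusted p = 0.495 over 8 such tests). By this estimate, a single fragment on a transcript of 2000 nt was worth 1.85 to 3.47 FPKM, depending on the library. The study reported far more clean reads per library than these estimates, and most of them aligned to the genome. The range of fragment numbers searched did not reach such depths, and the source of this gap was not tested. The number of transcripts above 0 was 4484 to 8209 (median 5595) in luteal and 6968 to 9737 (median 8594) in follicular libraries (exact permutation test, p = 0.0028, adjusted p = 0.0224). Follicular libraries thus listed more transcripts in total, and how far this difference accounts for the size of the follicular-only set was not tested. By fecundity level, FL exceeded LL without overlap both in transcripts above 0 and in fragments (exact permutation tests, each p = 0.0286, the smallest that 4 against 4 allows, adjusted p = 0.0762). FH and LH overlapped in both (exact permutation tests, p = 0.143 and 0.657, adjusted p = 0.286 and 0.751).

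The labels of the phases were compared with the defining genes that could be linked to the table. Of 59 marker symbols of ovarian and neighbouring cell types, 12 were linked to a transcript. PTGFR, the prostaglandin receptor through which the corpus luteum is made to regress, showed 2.05, 1.2, 1.52 and 3.29 FPKM across LH1–LH4 against 14.6, 23.08, 5.74 and 13.4 FPKM across LL1–LL4. In the follicular phase it was listed at 8.22 FPKM in FH2, at 5.41 FPKM in FH4 and at 0 in the other 6 libraries. SCARB1, which takes up cholesterol for steroid synthesis, was above 0 in 5 luteal libraries, up to 23.9 FPKM, and in 2 follicular ones, up to 5.91 FPKM. The follicular label could be read only from FOXL2, a granulosa transcription factor, and it did not follow the phases, with 19.39 FPKM in LH1, 12.14 FPKM in LL4, 5.05, 6.9 and 5.58 FPKM in FH2 to FH4, and 0 in the other 11 libraries. No theca or leukocyte marker was linked.

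The excess of follicular-only over luteal-only transcripts was present at every degree of detection that the data hold. Among transcripts listed in 1 phase only, 2438 were seen in a single follicular library and 1264 in a single luteal library, a ratio of 1.93. For exactly 2 libraries the counts were 1080 and 286, for exactly 3 libraries 487 and 66, and for exactly 4 libraries 249 and 11. The ratio thus went from 1.93 at 1 library to 22.6 at 4 libraries. Within the rule, 120 members were seen in exactly 5 follicular libraries against 6 mirror transcripts, 42 against 4 in exactly 6, and 6 against 1 in exactly 7. The ratio in these last classes (20.0, 10.5 and 6.0) rests on very few mirror transcripts. Another 8103 transcripts were listed at 0 in all 16 libraries.

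**Figure D1:**
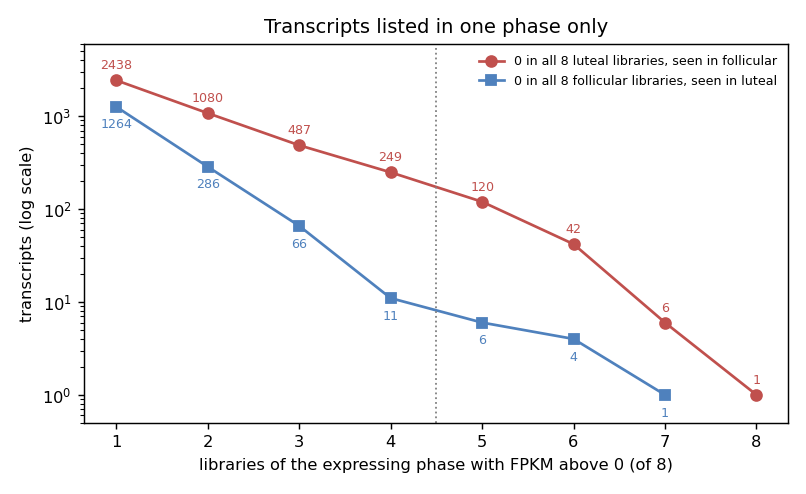
Transcripts listed in 1 phase only (y axis, number of transcripts, log scale) by the number of libraries of that phase with an FPKM above 0 (x axis, of 8). Red circles are transcripts at 0 in all luteal libraries and blue squares those at 0 in all follicular libraries, and the dotted line marks the rule of at least 5. The red line lies above the blue one throughout, at 120 against 6 transcripts for exactly 5 libraries, and no luteal-only transcript was seen in all 8.

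Set against the transcripts that could have been members, the set was a small fraction. Of 6550 transcripts above 0 in at least 5 follicular libraries, the 169 members made up 2.58%, whereas of 3826 transcripts above 0 in at least 5 luteal libraries, the 11 mirror transcripts made up 0.288%. The share at 0 in the whole luteal phase depended on how widely a transcript was seen in the follicular phase. It was 7.62% of the 1575 transcripts seen in exactly 5 follicular libraries, 3.23% of the 1299 seen in 6, 0.499% of the 1203 seen in 7 and 0.0404% of the 2473 seen in all 8. Follicular-only listing was thus most frequent among transcripts that were themselves missing from several follicular libraries. The corresponding luteal shares were 0.722% of 831, 0.604% of 662, 0.165% of 607 and 0 of 1726.

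Every follicular ovary contributed to the set, and the contribution followed how many transcripts a library listed at all. FH2 had 139 of the 169 members above 0, with 9258 transcripts of the table listed, and FL3 had 129, with 9737 listed. At the other end FH3 had 87 members, with 6968 transcripts listed, and FL4 had 91, with 7277 listed. FL1, FH1, FH4 and FL2 lay between them with 121, 119, 115 and 101 members, and with 9397, 8610, 8578 and 7769 transcripts listed. The order of the 8 libraries was the same for both measures, except that FH2 stood above FL3 and FL1 in members. The fragments on members ranged from 139 in FH3 to 373 in FH2. That no library carried the set alone was fixed by the rule, which asks each member to be above 0 in several follicular libraries. The highest value of a member was found in FL3 for 30 members, in FH2 for 29, in FH4 for 26, in FH3 for 20, in FL4 for 18, in FL1 for 17, in FH1 for 15 and in FL2 for 14.

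**Figure D2:**
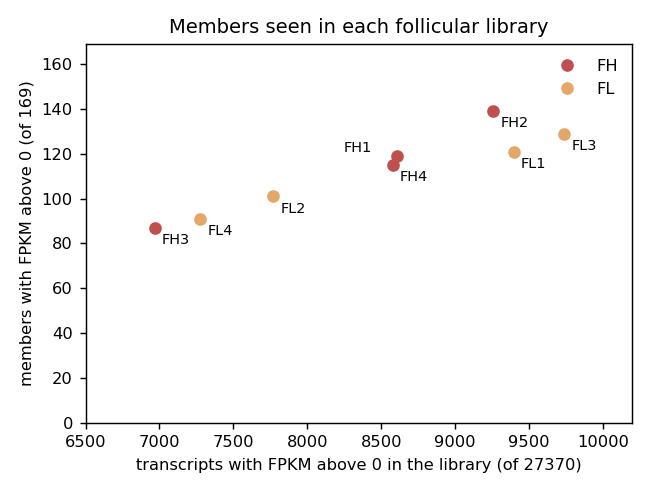
Members with an FPKM above 0 (y axis, of 169) against all transcripts with an FPKM above 0 (x axis, of 27370) in each of the 8 follicular libraries, 1 point per sow, FH in red and FL in orange. The points rise together from FH3 (87 members, 6968 transcripts) to FH2 (139 members, 9258 transcripts), and the FH and FL points are intermixed.

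The fragments behind a member were few. The total over the 8 follicular libraries ranged from 5 to 113, with a median of 11 and quartiles of 8 and 14. Under 10 fragments stood behind 62 members, 10 to 19 behind 94, and 20 or more behind 13. Of the 902 values above 0, 391 (43.3%) were a single fragment and 229 were a pair, and only 9 values reached 10 fragments. In 3 values the FPKM was worth less than 0.5 of a fragment, as a program that divides reads among transcripts can give, so 166 members had at least 1 whole fragment in 5 or more libraries. For 12 members, at least 0.5 of all fragments came from 1 library, which was FH2 for 5 of them, FH1 and FL1 for 3 each and FL4 for 1. The mean FPKM over the follicular libraries had a median of 3.11 over the members (0.87 to 57.4), compared with 7.0 over the other 6381 transcripts seen in at least 5 follicular libraries, whose median total was 26 fragments. If 3 fragments over the pooled luteal libraries are taken as the most that a count of 0 allows, that limit is 0.997 FPKM for a transcript of 2000 nt. The pooled follicular level of all 169 members lay above their own limit, but since the rule chose them for this, the count is a description. Intervals and limits of this kind cover counting error only.

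**Figure D3:**
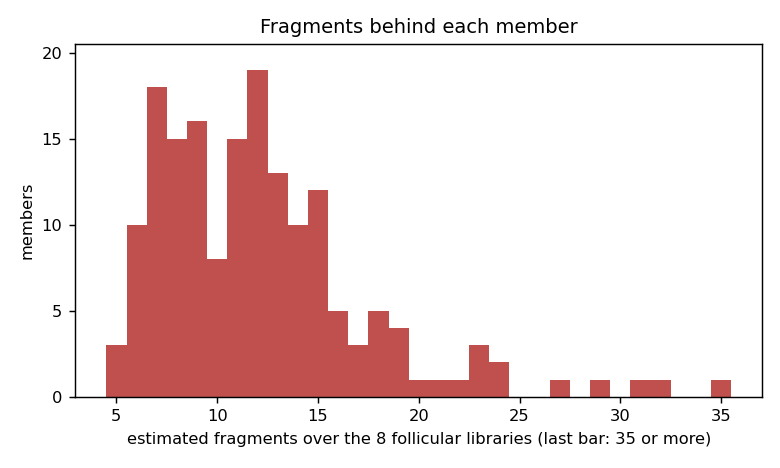
Number of members (y axis) by the estimated fragments over all 8 follicular libraries (x axis, 1 fragment per bar, last bar 35 or more). Most members lie between 5 and 15 fragments around the median of 11, and 1 member, with 113 fragments, fills the last bar.

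Transcript length was not used by the rule, and the members lay between the whole table and the transcripts seen in the same libraries. The median length was 2178 nt over the members (quartiles 1298 and 2945, range 474 to 6763), 1434 nt over all transcripts, and 2775 nt over the 6550 transcripts above 0 in at least 5 follicular libraries. Of the members 68.6% were longer than 1500 nt, against 48.0% of all transcripts and 78.1% of those 6550. These are counts over transcripts, which are not replicates, and no test was made.

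ENSSSCT00000007316, a transcript of 1330 nt, was by far the most abundant member. It showed 28.36, 81.11, 50.72 and 119.07 FPKM across FH1–FH4 against 35.77, 24.44, 77.93 and 41.79 FPKM across FL1–FL4. All 8 follicular ovaries expressed it, the highest was FH4 and the lowest FL2, and the FH and FL values overlapped. Its 113 fragments were spread over the libraries, from 6 in FL2 to 26 in FH4. Pooled, it stood at 55.2 FPKM in the follicular phase, while 3 fragments over the pooled luteal libraries would have been 1.61 FPKM. None of the sources used here pairs this ID with a gene name.

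A few other unnamed transcripts followed it in fragments. ENSSSCT00000023263 (981 nt, 32 fragments) showed 9.27, 24.27, 16.72 and 60.60 FPKM across FH1–FH4 against 8.73, 0, 31.11 and 42.79 FPKM across FL1–FL4, so FL2 alone lacked it. ENSSSCT00000034185 (2628 nt, 31 fragments) was highest in FL1, at 19.15 FPKM, and was listed at 0 in FH4 and FL2. ENSSSCT00000015100 (927 nt, 29 fragments) reached 58.82 FPKM in FH2 and 45.18 FPKM in FH3 and was listed at 0 in FH1 and FL1. In these 3 transcripts the libraries with a 0 differed from one to the next, and high and low values occurred in both fecundity groups. ENSSSCT00000015719 and ENSSSCT00000024889, with 24 and 23 fragments, were each seen in 6 libraries, at up to 12.65 FPKM in FL1 and up to 8.2 FPKM in FL4. Beside ENSSSCT00000023263 and UBOX5, the members seen in 7 libraries were ENSSSCT00000001028, ENSSSCT00000006683, ENSSSCT00000011916 and ENSSSCT00000033677. ENSSSCT00000024410 and ENSSSCT00000026854, both of 945 nt, had the same FPKM in every library, so their reads cannot be told apart and they stand for 1 measurement.

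A gene symbol was known for 31 of the 169 members, from the transcript and gene pairs in the study's own lists, and 138 remain without a name. The 31 members had 5 to 27 fragments (median 12). Those lists hold transcripts picked by the study, so the named members are not a sample of all 169. Of the 31, the 20 with the most fragments are described by role, and the plot of their fragments by library shows them with the unnamed leaders.

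**Figure D4:**
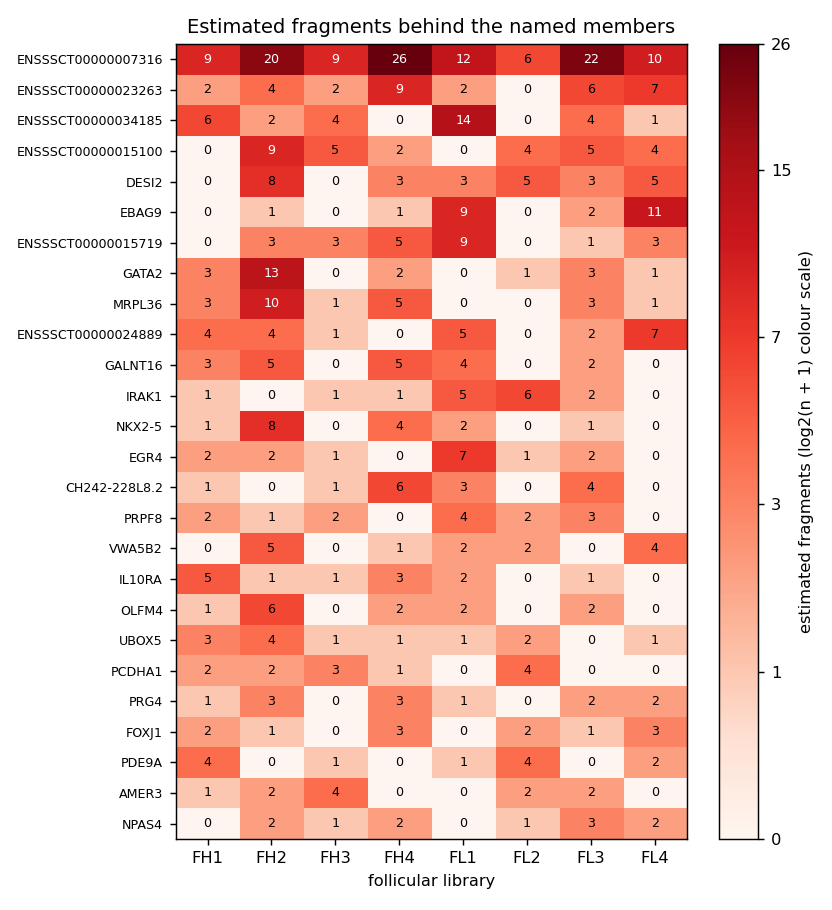
Estimated fragments in each follicular library (columns, FH1 to FL4) for the members with the most fragments and the 20 named members with the most fragments (rows). Colour follows log2(fragments + 1) and the number in each cell is the estimate. The top row, ENSSSCT00000007316, is filled in all 8 libraries, whereas every other row but UBOX5 and ENSSSCT00000023263 has at least 2 empty cells.

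Transcription factors formed one group of the named members, with 5 of the 20. GATA2, a zinc-finger factor best known from blood progenitors and endothelium, showed 3.6, 20.69, 0 and 3.49 FPKM across FH1–FH4 against 0, 1.56, 4.12 and 1.6 FPKM across FL1–FL4. Of its 23 fragments 56.5% came from FH2, so its level outside that sow was low. NKX2-5, a homeobox factor of the developing heart, had the same shape, with 27.16 FPKM in FH2, 14.96 FPKM in FH4, 2.57 FPKM in FH1, 4.88 FPKM in FL1, 2.92 FPKM in FL3, and 0 in the other 3 libraries. FH2 supplied 8 of its 16 fragments. EGR4, of a family of early growth response factors that many stimuli induce quickly, showed 4.22, 5.58, 3.75 and 0 FPKM across FH1–FH4 against 14.01, 2.74, 4.8 and 0 FPKM across FL1–FL4. NPAS4, a factor induced by activity in neurons, was seen at 2.06 to 5.43 FPKM in 6 libraries and was listed at 0 in FH1 and FL1. For both, the FH and FL values overlapped.

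FOXJ1, the fifth, switches on the genes of motile cilia and marks the ciliated cells of the oviduct, and so serves as a marker of another cell type. It showed 2.76, 1.83, 0 and 6.02 FPKM across FH1–FH4 against 0, 3.59, 1.58 and 5.53 FPKM across FL1–FL4, from 12 fragments. Of the 4 oviduct markers, OVGP1 and EPCAM were not linked, and the fourth, PAX8, was not a member. PAX8 was listed at 0 in FH1 and FH3, at 5.13 and 11.36 FPKM in FH2 and FH4, and at 25.81, 35.25, 4.39 and 25.84 FPKM across FL1–FL4. In the luteal phase it was listed at 14.76, 14.47 and 25.95 FPKM in LH2 to LH4, at 6.18 FPKM in LL4, and at 0 elsewhere. The summed level of the 2 linked oviduct markers was 0 to 25.9 FPKM in LH, 0 to 6.18 in LL, 0 to 17.4 in FH and 5.97 to 38.8 in FL. FOXJ1 was thus listed at 0 in luteal libraries in which PAX8 was present, and the part that oviduct cells have in the FOXJ1 values was not tested.

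Genes that nearly every cell uses made up a second group. MRPL36, a protein of the large subunit of the mitochondrial ribosome, showed 4.94, 21.8, 2.92 and 11.96 FPKM across FH1–FH4 against 0, 0, 5.63 and 2.19 FPKM across FL1–FL4. PRPF8, the scaffold at the core of the spliceosome and the longest member at 6763 nt, was listed between 0.7 and 2.01 FPKM in 6 follicular libraries, from 14 fragments. The luteal value of these transcripts, as annotated, is given only as listed at 0, and the same holds for every other member. Whether their RNA was absent from the luteal ovary or missed at this depth was not tested. UBOX5, a ubiquitin ligase with a U-box, was seen in 7 libraries, at 1.68 to 9.38 FPKM, with 13 fragments. DESI2, of a family of proteases that remove SUMO, had the most fragments of any named member (27) and showed 0, 9.46, 0 and 3.88 FPKM across FH1–FH4 against 2.54, 5.81, 3.06 and 5.95 FPKM across FL1–FL4. It was present in all 4 FL sows and in 2 of the 4 FH sows.

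Signalling and immune genes were represented by IRAK1, IL10RA, PDE9A and AMER3. IRAK1, the kinase that relays signals of the interleukin-1 receptor and of Toll-like receptors, showed 1.17, 0, 2.08 and 1.71 FPKM across FH1–FH4 against 5.59, 9.19, 2.69 and 0 FPKM across FL1–FL4. IL10RA, the ligand-binding chain of the interleukin-10 receptor on leukocytes, showed 5.42, 1.44, 1.91 and 4.73 FPKM across FH1–FH4 against 2.06, 0, 1.24 and 0 FPKM across FL1–FL4. IRAK1 was highest in 2 FL sows and IL10RA in 2 FH sows, with overlap of the groups in both. The other transcripts paired with IRAK1 (2), IL10RA (1) and TRIM39 (1) were listed at 0 in all 16 libraries. No leukocyte marker of the list could be linked, so the leukocyte content of the samples was not measured here. PDE9A, which hydrolyses cyclic GMP, was seen in 5 libraries at 0.75 to 4.11 FPKM, and AMER3, of a family that binds the APC protein of the WNT pathway, in 5 libraries at 1.49 to 10.52 FPKM.

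Secreted and surface proteins and a glycosylation enzyme made up the next group. OLFM4, a secreted olfactomedin glycoprotein, showed 1.25, 9.95, 0 and 3.63 FPKM across FH1–FH4 against 2.38, 0, 2.86 and 0 FPKM across FL1–FL4. PRG4, the lubricant of joint surfaces, was seen in 6 libraries at 0.84 to 3.83 FPKM. GALNT16, one of the enzymes that begin mucin-type O-glycosylation, was seen in 5 libraries at 2.11 to 6.68 FPKM. PCDHA1, a protocadherin of the cell surface, showed 3.83, 4.23, 8.49 and 2.79 FPKM across FH1–FH4, with 8.31 FPKM in FL2 and 0 in the other FL sows. PCDHA1 and PCDHA3, also a member, belong to a gene cluster whose transcripts share exons, so their split of reads is uncertain. EBAG9, a gene known to respond to estrogen, was highest in FL4 at 18.58 FPKM and FL1 at 10.83 FPKM, was listed at 2.89 FPKM in FL3, 1.84 in FH4 and 1.68 in FH2, and at 0 in the other 3. The values of EBAG9 thus varied as much within FL as between the groups. VWA5B2 and CH242-228L8.2, the latter named after a genomic clone, were seen in 5 libraries each, at up to 5.53 and 56.75 FPKM.

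Other members with a symbol had fewer fragments. CCDC177 had 11, HSF5 and CLUH 9 each, ABCF3, RADIL and PCDHA3 8 each, NELFB 7, TRIM39 and MYOD1 6 each, and FAM189B 5. They include a further pair of genes used by most cells, NELFB, a subunit of the complex that pauses RNA polymerase II, and CLUH, which binds messenger RNAs of mitochondrial proteins. They also include MYOD1, a transcription factor known from skeletal muscle, at 6 fragments. At such counts a level in a single sow is no more than presence.

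The pathways for which the follicular ovary is best known were nearly out of reach of the names. Of 59 symbols in lists for the cell cycle, gonadotropin and cAMP signalling, the TGF-beta family, WNT and IGF, 14 were linked to a transcript and none of the 14 was a member. The linked ones were 3 of 17 in the cell cycle (MKI67, CCNA2 and E2F1), 1 of 8 in gonadotropin signalling (CREB1), 5 of 18 in the TGF-beta family, 2 of 8 in WNT and 3 of 8 in IGF. The summed level of the 3 linked cell cycle genes was 3.57 to 23.5 FPKM in LH, 3.08 to 18.9 in LL, 3.29 to 46.9 in FH and 4.43 to 33.4 in FL, and so overlapped between the phases. The 2 linked WNT receptors, FZD4 and FZD5, summed to 8.77 to 13.5 FPKM in FH, above the 0 to 6.46 in LH, 0.93 to 3.68 in LL and 0.68 to 7.92 in FL. FZD5 showed 4.68, 7.76, 8.28 and 6.81 FPKM across FH1–FH4 against 2.23, 4.58, 0 and 0 FPKM across FL1–FL4, without overlap. The FH and FL values of FZD4 overlapped. Neither was called between FH and FL here, whereas the study reported FZD5 as higher in FH by sequencing and by RT-qPCR. The TGF-beta transcripts summed to 13.9 to 76.6 FPKM in LH, 19.0 to 39.4 in LL, 12.3 to 70.1 in FH and 21.4 to 90.2 in FL, and those of IGF to 1.08 to 10.4, 0 to 1.68, 1.08 to 6.55 and 2.49 to 47.6 FPKM in the same order. CREB1 was listed at 11.17 FPKM in LH4 and at 0 in all other libraries. Among the 138 unnamed members these lists could not be looked for.

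High and low fecundity were compared within the follicular phase, a contrast that the rule did not use. With limma on log2(FPKM + 1), 366 of 8296 transcripts (4.41%) passed the study's threshold of p under 0.05, unadjusted, and a log2 difference of 1 or more in either direction. All 169 members entered this test and 6 (3.55%) passed. Since a member seen in 5 of 8 libraries is above 0 in at least 1 sow of each group, it cannot be at 0 in a whole group, and over the 8253 transcripts of that kind 323 (3.91%) passed. No member was called after adjustment (smallest adjusted p = 0.826, limma with Benjamini-Hochberg adjustment over all 8296 transcripts, none of which reached 0.05 either, with 396 at an unadjusted p under 0.05). With limma voom on the estimated fragments, 31 transcripts had an adjusted p under 0.05, and 0 of these were members. The median log2 difference was 0.12 over the members and −0.03 over all transcripts tested, with 94 members on the positive side (higher in FH) and 75 on the negative side. Seen in more FH than FL sows were 76 members, in more FL than FH sows 66, and in as many of both 27. Only ENSSSCT00000013150 had groups that did not overlap (0.592% of members against 2.56% of all transcripts tested), and it was not past the threshold (log2 difference 1.53, SE 0.74, unadjusted p = 0.0602, limma). Where both groups hold a 0, as in most members, they overlap by construction. The 2.56% also includes transcripts at 0 in a whole group, which members cannot be. The lower share among members is therefore not a result about them.

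Higher in FH by this unadjusted threshold were 3 members, where 1.94% of all transcripts tested passed in that direction. ENSSSCT00000013179 (750 nt, 7 fragments) showed 6.72, 8.74, 24.56 and 19.55 FPKM across FH1–FH4 against 0, 0, 0 and 8.81 FPKM across FL1–FL4, a log2 difference of 2.99 (SE 0.97, limma unadjusted p = 0.00867, adjusted p = 0.826). All 4 FH sows had it, and FL4 alone among the FL sows, at a level above that of FH1 and FH2. ENSSSCT00000026781 (945 nt, 12 fragments) showed 34.09, 6.37, 8.8 and 7.08 FPKM across FH1–FH4 against 0, 0, 10.88 and 0 FPKM across FL1–FL4 (2.69, SE 1.03, limma unadjusted p = 0.0214, adjusted p = 0.914). FH1 was far above the other FH sows, and FL3 was above 3 of them. Without FH1 the difference was 2.17, without FL1 or FL2 it was 2.39, and in each case it was no longer past the threshold. ENSSSCT00000007029 (1107 nt, 6 fragments) showed 3.96, 5.2, 14.24 and 5.76 FPKM across FH1–FH4, with 5.24 FPKM in FL4 and 0 in the other FL sows (2.25, SE 0.91, limma unadjusted p = 0.0283). It lost its call without FL1, FL2 or FL3, each of which was listed at 0, with a difference of 2.03 in each case.

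Lower in FH were 3 others, where 2.47% of all transcripts tested passed in that direction. ENSSSCT00000015849 (939 nt, 12 fragments) showed 0, 0, 8.88 and 7.14 FPKM across FH1–FH4 against 4.62, 25.22, 10.97 and 19.42 FPKM across FL1–FL4, a log2 difference of −2.20 (SE 0.98, limma unadjusted p = 0.0429). FH3 and FH4 lay above FL1, so the groups overlapped. ENSSSCT00000002229 (2016 nt, 5 fragments) was listed at 1.93, 0, 0 and 0 FPKM and at 1.84, 2.51, 2.2 and 2.58 FPKM (−1.32, SE 0.59, limma unadjusted p = 0.0435), which is 1 fragment in FH1 and 1 in each FL sow. ENSSSCT00000027105 (2045 nt, 10 fragments) was listed at 3.81, 0, 0 and 0 FPKM and at 3.61, 7.42, 2.17 and 5.07 FPKM (−1.82, SE 0.82, limma unadjusted p = 0.0438). In both, FH1 was above at least 1 FL sow. Without one of FH2, FH3 or FH4 neither passed, at −1.19 and −1.63, and ENSSSCT00000015849 did not pass without FH1 or FH2 (−1.67), FL2 (−1.89), FL3 (−2.27) or FL4 (−2.01), nor ENSSSCT00000027105 without FL2 (−1.59) or FL4 (−1.75). The split of the calls also turned on scaling, with 4 higher and 1 lower under median-ratio scaling and 5 higher and none lower under quantile normalization.

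**Figure D5:**
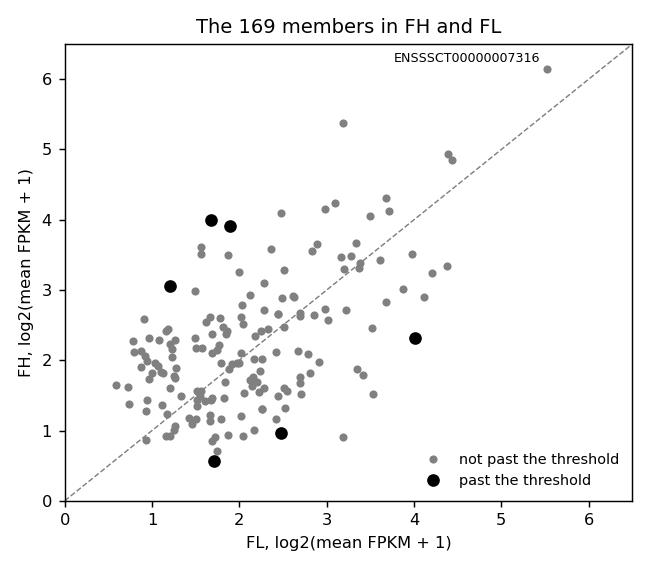
Level of each of the 169 members in FL (x axis) and FH (y axis), as log2(mean FPKM + 1) over the 4 sows of each group, with the line of equal levels dashed. Black points are the 6 members past the unadjusted threshold, 3 on each side of the line, and ENSSSCT00000007316 lies at the top right, above the other 168.

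No named member passed this threshold. The nearest was MRPL36, with a mean of 10.4 FPKM in FH and 1.96 FPKM in FL, a log2 difference of 2.09 (SE 0.97, limma unadjusted p = 0.0504). EBAG9 had the opposite sign, with 0.88 FPKM in FH and 8.08 FPKM in FL (−1.72, SE 1.01, limma unadjusted p = 0.111). ENSSSCT00000007316 averaged 69.8 FPKM in FH and 45.0 FPKM in FL (0.56, SE 0.52, limma unadjusted p = 0.296). None of these 3 differences passed the threshold, which does not show that the groups were alike. MRPL36 and EBAG9 took their names from the study's lists of differential transcripts. Since both were at 0 in all luteal libraries, only the study's own comparison of FH with FL could have listed them. The study's test thus called them where the fit used here did not, and their being named is not independent of this contrast. Of the 28 transcripts linked to the marker and pathway lists, 19 were tested, none was called higher in FH, and 2 were called lower, PAX8 (−2.71, SE 0.99, limma unadjusted p = 0.0168) and IGF1R, the receptor of insulin-like growth factor 1 (−2.09, SE 0.93, limma unadjusted p = 0.0423), both with an adjusted p of 0.914. The 2 fecundity groups could not be compared in the luteal phase, where all members were listed at 0.

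The edge of the rule was gradual on both sides. Seen in exactly 4 follicular libraries and in no luteal one were 249 transcripts, with a median of 8 fragments and a median mean level of 2.44 FPKM, compared with 10 fragments and 2.89 FPKM in the 120 members seen in exactly 5. Among those 249, ENSSSCT00000018327 had the most fragments (67), with 51.42 FPKM in FH1, 16.56 in FH4, 9.83 in FL3 and 11.46 in FL4. TREML-2 (ENSSSCT00000024614, 26 fragments), of the TREM family of immune receptors, was listed at 19.06 FPKM in FH1, 23.09 in FH4, 53.39 in FL2 and 8.43 in FL4. ENSSSCT00000016715 had 20 fragments, at 7.2 FPKM in FH1, 7.96 in FH2, 8.73 in FH4 and 5.49 in FL3. All 3 exceeded most members in fragments, so the number of libraries and not the level left them out.

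On the other side, 478 transcripts were above 0 in at least 5 follicular libraries and in exactly 1 luteal library, with a median of 12 follicular fragments. In 216 of them (45.2%) the luteal value was worth at most 1 fragment. That library was LH2 for 146 and LH3 for 137, the luteal libraries with the most transcripts above 0 (8209 and 7932), LL4 for 60, LH4 for 47, LL3 for 26, LH1 for 24, and LL1 and LL2 for 19 each. Without LH2 the rule would have taken 315 transcripts, and without LH3 306. The most abundant of the 478 were not near 0 in their luteal library. CASP8, the initiator protease of death receptor signalling, was listed at 81.77 FPKM in LH4, and in the follicular phase at 599.77 FPKM in FL4, 123.44 in FL2, 10.22 in FH4, 6.01 in FL3, 4.65 in FH2 and 0 in the other 3. ENSSSCT00000019509 was listed at 132.6 FPKM in LH4 and at 2.11 to 72.13 FPKM in 5 follicular libraries. ENSSSCT00000031959 was listed at 14.1 FPKM in LH4 and at 147.99 FPKM in FL4.

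The 11 mirror transcripts were as thinly covered. ENSSSCT00000019394 rested on about 1 fragment in all, with 1.67 FPKM in LL2 and 0.01 FPKM in its other luteal libraries above 0. The leading one, ENSSSCT00000002914 (669 nt, 26 fragments), showed 27.66, 0, 0 and 0 FPKM across LH1–LH4 against 34.93, 154.53, 25.09 and 78.53 FPKM across LL1–LL4. ENSSSCT00000006848 (517 nt, 15 fragments) was seen in 7 luteal libraries, at 15.43 to 62.85 FPKM, and was listed at 0 in LL3. No mirror transcript matched ENSSSCT00000007316 in fragments or in the number of libraries. ENSSSCT00000018965 and ENSSSCT00000016276 followed, with 14 and 13 fragments and up to 19.3 and 21.86 FPKM. TNIP1, a ubiquitin-binding inhibitor of NF-kappaB signalling, had 13 fragments, with 2.96, 3.43, 2.19 and 0 FPKM in LH1 to LH4 and 13.12, 0, 5.51 and 5.53 FPKM in LL1 to LL4. It and FMNL2, a formin that builds actin filaments, were the only mirror transcripts with a symbol.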

How the data were processed

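Whole-ovary RNA of 16 sows was measured after removal of ribosomal RNA, with a directional kit and paired reads. The authors mapped reads to Sscrofa10.2 and deposited FPKM values per transcript, computed with RSEM, with transcript lengths. The submitters' processing notes name HISAT2 2.0.1, StringTie 1.0.4 and DESeq2 1.6.3. The strand setting is not given in the sources used here, so reads of a transcript and of an antisense partner cannot be told apart. No count table was used.

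Members were all rows meeting the rule. The members and the gene lists were chosen with earlier results of these data known. Fragments were estimated from the steps of the deposited FPKM values of transcripts longer than 1500 nt. Within 0.05 of a whole number lay 92.3% to 94.4% of low values per library, and rounding gave the fragments printed. They are fragments on the transcripts of this table, not all reads of a library. Checks of the estimate and of the fit used simulated data. The simulated depths lay inside the range of fragment numbers searched, so the check could not detect a depth outside that range.

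FH and FL were compared with limma (version 3.58.1, R 4.3.3). The input was log2(FPKM + 1), the variance followed a trend, p was two-sided and was adjusted by Benjamini-Hochberg across the tested transcripts, those reaching 0.5 FPKM in 4 or more of the 8 follicular libraries. Differences on this scale understate changes of low transcripts. Library measures used exact permutation tests in scipy 1.17.1. Tables were handled in Python 3.11.15 (numpy 2.4.6, pandas 2.3.3) and plots drawn in matplotlib 3.10.9. Replicate numbers did not pair sows (r of deviations −0.08 to −0.02). Named were members seen in all 8 libraries, the 10 with the most fragments, those past the threshold (at most 5 per direction), the 20 symbols with the most fragments, 3 transcripts on each side of the rule and 5 mirror transcripts. Other transcripts are named because a count of few singled them out, after their values were seen.

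Symbols came from the study's lists of differential transcripts (2 members) and of miRNA targets (29), used for names only. The values of 1 member with a symbol are not reported here. Of the table, 3847 transcripts had one. No positions or sequences are given, because no annotation or sequence of the build was used here. Columns of the authors' own comparisons were not used. Alternatives were other forms of the rule, pseudocount, filter, scaling, variance model, a replicate block, voom on estimated fragments, and leaving out each library.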

Additional observations from a re-analysis of the deposited data

Results flagged for a closer look

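Within each group of 4 sows, a library was sought whose gap to its nearest neighbour, as a share of the group's range, was above Dixon's critical value for 4 samples. Searched were the named members in FH and FL, and the fragments and transcripts above 0 in each library. The number of members above 0 in each follicular library was searched too. Of 74 groups examined 8 were flagged, all of them for values of members, while chance flags about 1 in 20, and a single sow above 0 among zeros always meets the criterion. ENSSSCT00000026781 stood at 34.09 FPKM in FH1 (nearest FH sow 8.8) and at 10.88 FPKM in FL3 with the other FL sows at 0. ENSSSCT00000002229 and ENSSSCT00000027105 stood at 1.93 and 3.81 FPKM in FH1 with the other FH sows at 0. ENSSSCT00000013179 and ENSSSCT00000007029 stood at 8.81 and 5.24 FPKM in FL4, and PCDHA1 at 8.31 FPKM in FL2, each with the other FL sows at 0. ENSSSCT00000015100 was listed at 0 in FL1, while the nearest FL sow had 25.65 FPKM.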

How the results depend on the processing

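The size of the set depended on the rule. It held 418 transcripts for at least 4 libraries, 49 for at least 6, 7 for at least 7 and 1 for all 8, and the mirror set held 22, 5, 1 and 0. Asking for 0 in 4 and above 0 in at least 3 of 4 sows gave 381 against 61 in high-fecundity sows and 1082 against 56 in low-fecundity sows. Allowing under 0.5 FPKM in the silent phase gave 194 against 22. Minimum levels of 0.5 and 1 FPKM gave 166 and 157 members, and whole fragments 166, each against 10 mirror transcripts. Leaving out 1 library gave 74 to 315 members and 6 to 16 mirror transcripts. The count moved by over 1.5 times without LH2 (315), LH3 (306), FH1 (85), FH2 (74), FH4 (92), FL1 (83), FL2 (103) or FL3 (83). The mirror count did so without LH1, LH4 or LL3 (7 each) and LL1 or LL4 (6 each). The direction of these moves was fixed by construction. Without a follicular library, members had to be above 0 in at least 5 of 7, so their count could only fall. Without a luteal library, fewer zeros were asked of members, so their count could only rise. For the mirror set the phases change places. In each setting with both counts the members outnumbered the mirror.

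For FH vs FL, the share of members called stood on either side of the share of all transcripts tested, depending on the fit. A fit of all 4 groups called 651 transcripts (5.9%) and 16 members (9.47%), a fit without the variance trend 4.68% of transcripts and 11 members (6.51%), and voom 5.51% and 3 members (1.78%). The fit of all 4 groups takes its variance from the luteal libraries too, where the rule sets every member at 0. This lowers the variance of members by construction, so the rise in their calls there cannot be read as a result. Leaving out 1 sow gave 338 to 431 transcripts and 5 to 8 members. The replicate block, with numbers that did not pair sows, gave 346 transcripts and 4 members. Over 17 alternatives the smallest adjusted p (limma) of the 6 called members was 0.481, in that fit of all 4 groups, which all 6 passed. ENSSSCT00000013179 passed in 16, ENSSSCT00000026781 in 14, ENSSSCT00000007029 in 13, ENSSSCT00000015849 in 10, ENSSSCT00000002229 in 9 and ENSSSCT00000027105 in 7, and none changed sign. The cause was not tested. The estimated depth limits all of these values, since a single estimated fragment decides many of them.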
